A study of Mus musculus with 6 samples.

Results

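The NRF2 antioxidant and iron handling genes are a set of 36 genes chosen by name, from 22180 genes with an array feature that carries a single gene symbol. The genes were chosen with earlier results of these data known. They comprise the NRF2 switch and its target enzymes, the glutathione, thioredoxin and peroxide enzymes, the sources of NADPH, and genes for iron uptake, export and sensing and for metal binding. Of the 36 genes, 33 were measured on a feature of their own. Prdx1 lies only on features with several symbols, and Prdx6 and G6pdx have no single-symbol feature in the annotation used here, so these 3 were not analysed here.

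The samples are cultures of R1, a line of male embryonic stem cells from a 129X1 x 129S1 mouse embryo, grown on gelatin in medium with serum and LIF, which keeps such cells self-renewing. One group was kept for 3 days with 0.74 mM (250 µg/ml) AA2G, an ascorbic acid glucoside from which cells release vitamin C, and the other was kept without it. Each group has 3 samples, described as independent replicates of this 1 line, and each sample was read on 1 Affymetrix Mouse Gene 2.0 ST array. The deposited values are on the log2 scale (RMA), so a difference of 1 is a doubling, and no detection calls come with them. Array medians lay between 5.06 and 5.10, and no batch is named in the labels.

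NRF2, encoded by Nfe2l2, is a transcription factor that KEAP1 marks for destruction in unstressed cells. Oxidants and electrophiles modify KEAP1, and NRF2 then pairs with small MAF proteins on antioxidant response elements near genes that make glutathione, reduce thioredoxin and supply NADPH. Iron is tied to the same chemistry, because free ferrous iron turns hydrogen peroxide into hydroxyl radicals. Ascorbate is itself a reductant and keeps iron in the ferrous form that many dioxygenases need.

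The 10 markers of embryonic stem cells had a mean value per array of 9.64 to 9.65 in the AA2G samples and 9.72 to 9.74 in the untreated samples. For 40 measured markers of primitive endoderm, trophoblast, mesoderm, neuroectoderm, fibroblasts and erythroid cells, list means per array lay between 5.00 and 5.77 in the AA2G samples and between 5.06 and 5.75 in the untreated samples. Limma called 0 of the 10 and 0 of the 40. With an unadjusted p under 0.05, 3 stem cell markers were lower, among them Klf4 at a log2 difference of -0.31, and 0 were higher. Of the other cell types' markers 1 was higher, Lama1 of primitive endoderm at 0.50, and 5 were lower, among them Krt8 of trophoblast at -0.35. Of all features, 4.66% were higher and 5.06% lower at this p. The part of these marker differences in those described here was not tested. In such bulk samples, fewer cells that express a gene and less RNA per cell cannot be told apart.

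The largest differences in the set were higher values of the iron uptake genes Steap3 and Tfrc and lower values of the NRF2 targets Nqo1, Gclc and Txnrd1 in the AA2G samples. Steap3 differed by 0.45 ± 0.14 on the log2 scale and Nqo1 by -0.36 ± 0.14 (AA2G minus untreated, fitted SE, n = 3 each). None of the 33 genes passed limma's Benjamini-Hochberg adjusted p of 0.05, a threshold that 0.761% of the 23521 tested features passed. In simulated data, 26.1% of log2 differences of 0.5 and 0.15% of those of 0.25 passed it, so small differences would mostly go uncalled. The 33 genes were chosen with earlier results of these data known, so the shares that follow are descriptions and not tests. Their median SE was 0.08, against 0.09 for all features, so the 2 are not alike in precision. An unadjusted p under 0.05 was found for 6 of the 33 genes (18.2%), against 9.71% of all features. Of these 6, Nfe2l2, Nqo1, Gclc and Txnrd1 were lower, where 5.06% of all features were, and Tfrc and Steap3 were higher, where 4.66% were. The count was 2 without untreated replicate 2, 3 without AA2G replicate 1, 3 without AA2G replicate 3 and 4 without untreated replicate 3. The share of all features was not computed for these fits.

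The overlap of arrays is likewise a description, in a set chosen with earlier results of these data known. The 3 AA2G arrays did not overlap the 3 untreated arrays for 10 of the 33 genes (30.3%), against 15.7% of all features. They were higher for Tfrc, Steap3, Sod1 and Pgd (7.21% of all features) and lower for Nfe2l2, Keap1, Nqo1, Txnrd1, Gsta4 and Sod2 (8.48% of all features). The median log2 difference was 0.02 over the 33 genes, with 17 positive and 16 negative values, and -0.01 over all features. The 95% interval of the difference lay within a 2-fold change either way for each of the 33 genes, with bounds from -0.69 for Nqo1 to 0.78 for Steap3. RMA values of dim features understate fold changes, so these bounds hold for the values as deposited. For a single gene, the smallest p that an exact permutation of 3 and 3 arrays allows is 0.1, so none was tested that way.

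**Figure D1:**
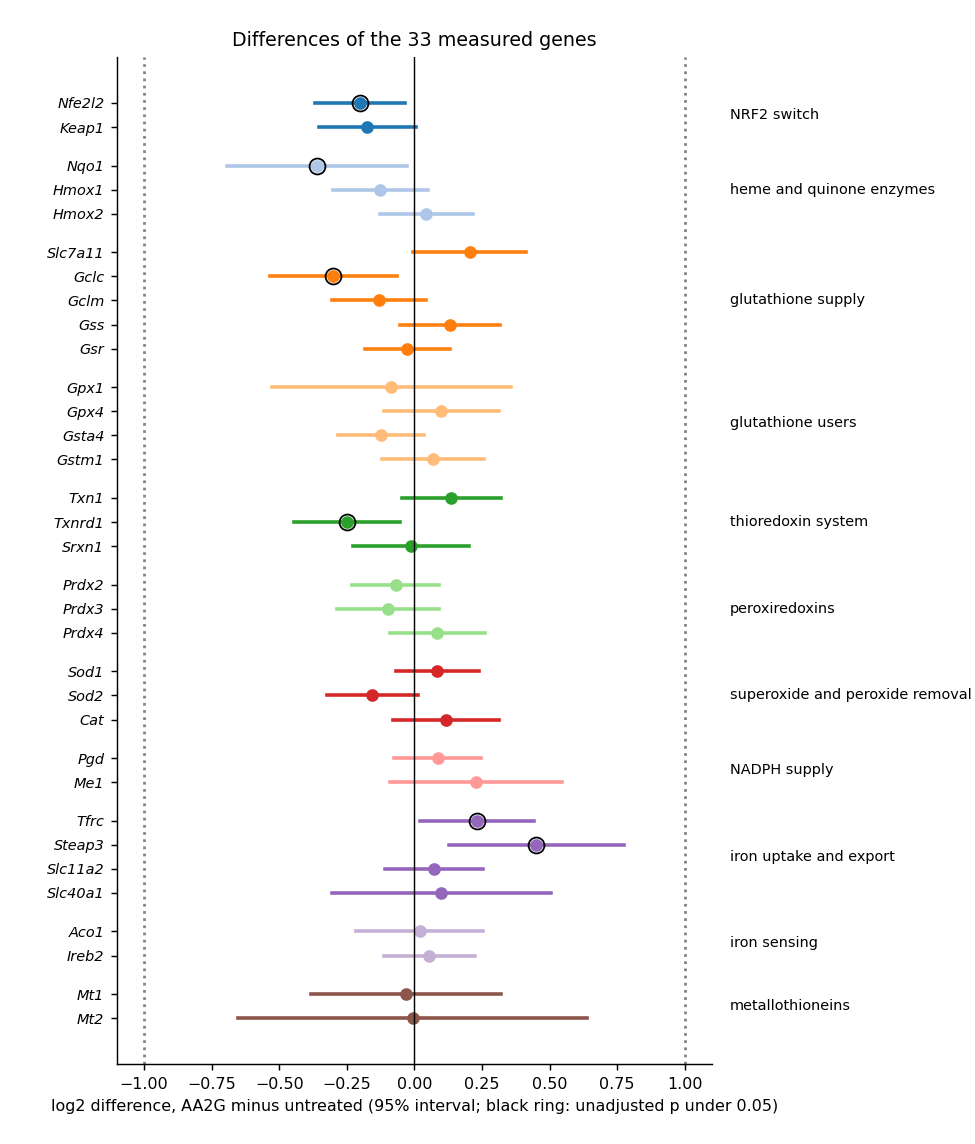
Log2 difference between the AA2G and untreated samples (horizontal axis, AA2G minus untreated) for each of the 33 measured genes, grouped by role, with the fitted 95% interval from 3 arrays a group. Dotted lines mark 2-fold changes, and black rings mark the 6 genes with an unadjusted limma p under 0.05. Nfe2l2, Nqo1, Gclc and Txnrd1 lie left of 0, Tfrc and Steap3 right of it, and no interval reaches a dotted line.

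Both genes of the NRF2 switch were lower in the AA2G samples without passing the test. Nfe2l2 had values of 9.03, 9.05 and 9.00 in the AA2G samples, against 9.31, 9.21 and 9.17 in the untreated samples. All AA2G arrays lay below all untreated arrays, and the AA2G arrays were within 0.06 of each other. The log2 difference was -0.20 ± 0.07 (SE; limma adjusted p = 0.384), a percent difference of -13.0%, with a 95% interval of -0.37 to -0.04. Keap1, the adaptor that brings NRF2 to a ubiquitin ligase, had values of 6.84, 6.96 and 6.94 in the AA2G samples, against 7.04, 7.18 and 7.03 in the untreated samples. Here too the groups did not overlap, and the difference was -0.17 ± 0.08 (limma adjusted p = 0.521). The other Keap1 feature does not share this order, with 6.84, 6.27 and 6.66 in the AA2G samples against 6.91, 6.29 and 6.48 in the untreated samples, and its difference was 0.03 ± 0.19.

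A group of 6 NRF2 targets was set for full description by name: Nqo1, Hmox1, Gclc, Gclm, Txnrd1 and Slc7a11. In this group 5 had negative differences and 1, Slc7a11, a positive one, with a median of -0.19 (52.3% of all features had negative differences) and 0 of 6 past limma's adjusted threshold. The 6 were chosen with earlier results of these data known, so this tally is a description and not a test. With Srxn1, a further target, 6 of 7 were negative, with a median of -0.13. Among 31 other NRF2 target and conjugation genes, 10 differences were negative and 21 positive, with a median of 0.02. Nqo1, which reduces quinones in a single step that avoids radical intermediates, had values of 6.89, 7.24 and 7.17 in the AA2G samples, against 7.24, 7.74 and 7.39 in the untreated samples. The highest AA2G array and the lowest untreated array were alike to the second decimal, so the groups were only just apart. The difference was -0.36 ± 0.14 (SE; limma adjusted p = 0.465), a percent difference of -22.0%, and was -0.22 without untreated replicate 2. Hmox1, the inducible heme oxygenase that frees iron from heme, had values of 8.54, 8.61 and 8.46 in the AA2G samples, against 8.72, 8.59 and 8.67 in the untreated samples. Its groups overlapped, and the difference was -0.13 ± 0.08 (limma adjusted p = 0.667). Hmox2, the constitutive heme oxygenase, had AA2G values of 8.38, 8.40 and 8.43 and untreated values of 8.31, 8.31 and 8.46, a difference of 0.04.

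The 2 subunits of glutamate-cysteine ligase, which catalyses the rate-limiting step of glutathione synthesis, both had negative differences. Gclc, the catalytic subunit, had values of 8.34, 8.65 and 8.40 in the AA2G samples, against 8.65, 8.86 and 8.79 in the untreated samples. Only AA2G replicate 2 reached the range of the untreated arrays, at its lower end. The difference was -0.30 ± 0.10 (SE; limma adjusted p = 0.354), a percent difference of -18.8%. Gclm, the modifier subunit, had values of 9.31, 9.36 and 9.41 in the AA2G samples, against 9.40, 9.52 and 9.55 in the untreated samples, with a difference of -0.13 ± 0.08 (limma adjusted p = 0.657). Its highest AA2G array lay just above the lowest untreated array.

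Of the other 3 genes of glutathione supply, Slc7a11 and Gss had positive differences and Gsr a difference of -0.03. Slc7a11, the cystine carrier of the exchanger that feeds glutathione synthesis, had values of 2.94, 3.07 and 3.06 in the AA2G samples, against 2.67, 2.83 and 2.95 in the untreated samples, the lowest values of the set. A value this low cannot be told from background without detection calls. Its second feature was lower still, at 2.43, 2.52 and 2.35 in the AA2G samples against 2.38, 2.33 and 2.26 in the untreated samples, with a difference of 0.11 ± 0.08. Gss, which completes glutathione, had values of 7.15, 7.27 and 7.05 in the AA2G samples, against 6.97, 7.07 and 7.04 in the untreated samples (difference 0.13). Gsr, which returns oxidised glutathione to its reduced form, varied least of all 33 genes, with 10.17, 10.08 and 10.09 in the AA2G samples against 10.16, 10.10 and 10.16 in the untreated samples. The 95% interval of its difference was -0.18 to 0.13.

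Within the thioredoxin system the reductase and its substrate had opposite signs. Txnrd1, the cytosolic selenoenzyme that uses NADPH to reduce thioredoxin, had values of 9.54, 9.67 and 9.62 in the AA2G samples, against 9.77, 9.99 and 9.81 in the untreated samples. All AA2G arrays lay below all untreated arrays, and the difference was -0.25 ± 0.08 (SE; limma adjusted p = 0.356), a percent difference of -15.9%. Txn1, thioredoxin itself, had values of 9.66, 9.61 and 9.73 in the AA2G samples, against 9.62, 9.43 and 9.55 in the untreated samples, with a difference of 0.14 ± 0.08 (limma adjusted p = 0.659). Srxn1, sulfiredoxin, which repairs overoxidised peroxiredoxins and is a further NRF2 target, had values of 7.56, 7.65 and 7.55 in the AA2G samples, against 7.42, 7.72 and 7.64 in the untreated samples. Its difference was -0.01, with a 95% interval of -0.23 to 0.20.

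**Figure D2:**
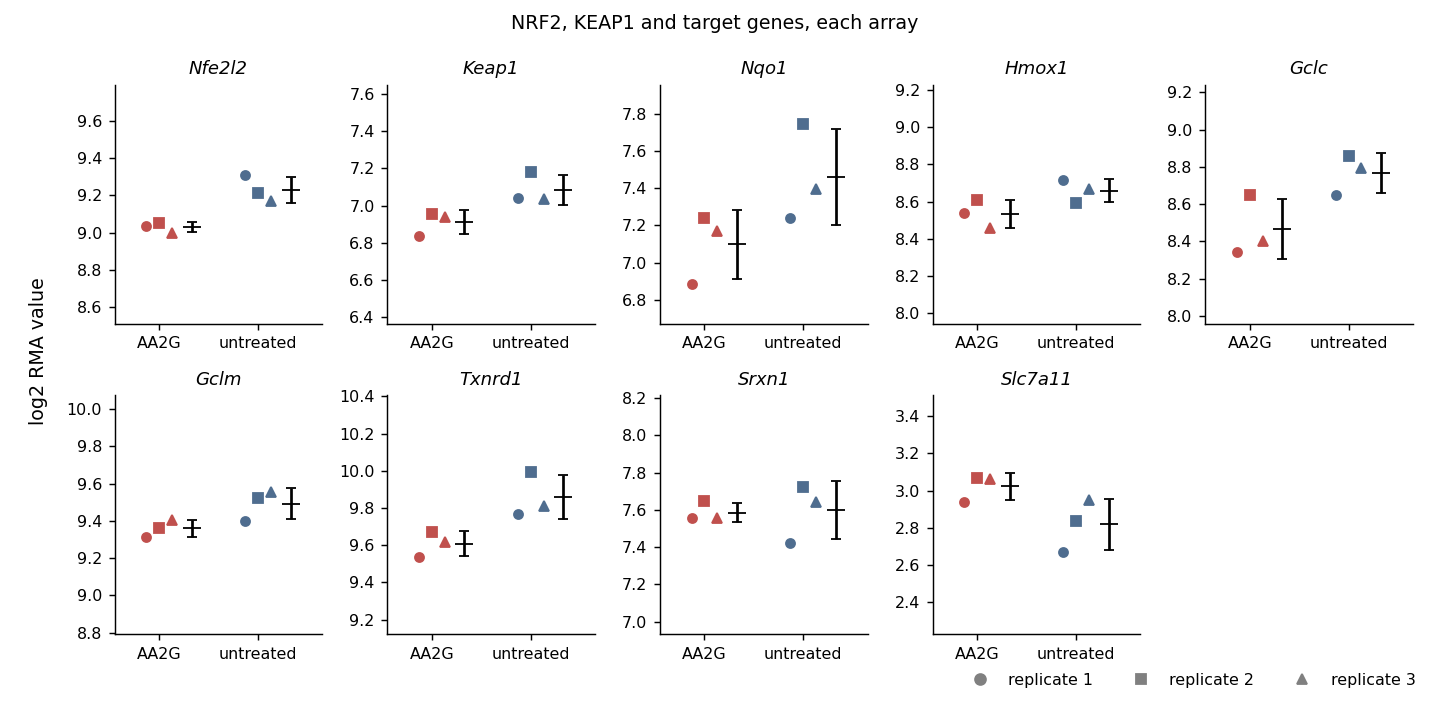
Log2 RMA value (vertical axis, the same span in every panel) of Nfe2l2, Keap1 and 7 NRF2 target genes on each array, AA2G left and untreated right, with a marker for each replicate and the mean ± SD (n = 3) in black. The AA2G arrays of Nfe2l2, Keap1, Nqo1 and Txnrd1 lie below the untreated arrays, while those of Hmox1, Gclc, Gclm, Srxn1 and Slc7a11 overlap them.

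The antioxidant response element was looked for in RefSeq promoter windows (GRCm38.p6) of these genes, as the letters TGACNNNGC on either strand in the 250 bases before a transcript start. Windows matched 29 of the 36 genes. The letters stood in 7 of these 29 genes (24.1%), namely Nfe2l2, Gclm, Txnrd1, Prdx1, G6pdx, Sod1 and Mt2, and in 11.5% of all 27025 genes with a window. Where the 3 middle letters are TCA the element contains TGACTCA, the AP-1 site, which was found in 3 of the 29 genes (10.3%: Mt2, Prdx1 and Srxn1) and in 5.16% of all genes. Of the 7, the stretches of Nfe2l2, Gclm and Txnrd1 are shown because the regulator and 2 of its target enzymes hold the letters, with the match in capitals. Binding of NRF2 to these letters was not measured. The match reads in the direction of the gene in Nfe2l2 and on the opposite strand in the other two.
Nfe2l2: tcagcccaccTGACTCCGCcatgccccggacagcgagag
Gclm: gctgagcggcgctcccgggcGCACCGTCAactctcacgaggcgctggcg
Txnrd1: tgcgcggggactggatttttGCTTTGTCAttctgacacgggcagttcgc

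The Nfe2l2 stretch is chr2:75704875-75704913 on the minus strand, the Gclm stretch chr3:122245403-122245451 on the plus strand and the Txnrd1 stretch chr10:82859094-82859142 on the plus strand. The Txnrd1 match lies before 1 of its 3 annotated starts. The windows of Nqo1, Slc7a11 and Srxn1 do not hold the letters, which says nothing of sites farther away. Sod1, which holds the letters too, had a positive difference, and Mt2 one of -0.01.

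Enzymes that spend glutathione had differences of -0.12 to 0.10. Gsta4, a glutathione transferase that clears lipid aldehydes, had values of 11.29, 11.21 and 11.29 in the AA2G samples, against 11.40, 11.35 and 11.42 in the untreated samples. The groups did not overlap, and the difference was -0.12 ± 0.07 (SE; limma adjusted p = 0.639). Gstm1, a glutathione transferase of the mu class, had a difference of 0.07, with AA2G arrays from 7.94 to 8.06 and untreated arrays from 7.80 to 7.98. Gpx4, the peroxidase that reduces lipid hydroperoxides and holds back ferroptosis, had values of 8.58, 8.38 and 8.49 in the AA2G samples, against 8.47, 8.24 and 8.44 in the untreated samples, with a difference of 0.10 ± 0.09 (limma adjusted p = 0.806). Gpx1, the main cytosolic glutathione peroxidase, had values of 9.58, 9.93 and 9.79 in the AA2G samples, against 9.40, 10.19 and 9.97 in the untreated samples. The spread within the untreated group (SD 0.41) exceeded the difference of -0.09, and the array of replicate 1 was the lowest in each group.

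The 3 measured peroxiredoxins, which remove hydrogen peroxide at thioredoxin's expense, had differences of -0.10 for Prdx3, -0.07 for Prdx2 and 0.08 for Prdx4. Prdx3, the mitochondrial form, had values of 8.39, 8.35 and 8.33 in the AA2G samples, against 8.37, 8.59 and 8.41 in the untreated samples. Prdx4, the form of the endoplasmic reticulum, had 6.05, 6.05 and 6.07 in the AA2G samples, against 6.07, 5.98 and 5.87 in the untreated samples. Prdx2, a cytosolic form, lay between 8.33 and 8.45 in the AA2G samples and between 8.42 and 8.48 in the untreated samples. All 3 overlapped between the groups, with limma adjusted p from 0.778 to 0.831.

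The superoxide dismutases, which turn superoxide into hydrogen peroxide, separated the groups in opposite directions by small amounts. Sod2, the manganese enzyme of mitochondria, had values of 10.31, 10.23 and 10.25 in the AA2G samples, against 10.50, 10.41 and 10.35 in the untreated samples, with a difference of -0.16 ± 0.07 (SE; limma adjusted p = 0.548). Sod1, the copper and zinc enzyme of the cytosol, had values of 11.48, 11.45 and 11.46 in the AA2G samples, against 11.37, 11.34 and 11.42 in the untreated samples, with a difference of 0.08 (limma adjusted p = 0.761). In neither did the groups overlap. Cat, catalase, which breaks down hydrogen peroxide in peroxisomes, had values of 10.71, 10.58 and 10.68 in the AA2G samples, against 10.68, 10.45 and 10.50 in the untreated samples, a difference of 0.12 ± 0.09 with overlapping groups.

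Both measured sources of NADPH, the reductant on which glutathione and thioredoxin reductases depend, had positive differences. Pgd, of the pentose phosphate pathway, had values of 10.11, 10.08 and 10.10 in the AA2G samples, against 9.94, 10.04 and 10.06 in the untreated samples. The groups did not overlap, although the difference was only 0.09 ± 0.07 (SE; limma adjusted p = 0.765). Me1, cytosolic malic enzyme, had values of 7.25, 6.92 and 7.11 in the AA2G samples, against 7.15, 6.79 and 6.66 in the untreated samples, with a difference of 0.23 ± 0.14 (limma adjusted p = 0.670). Its untreated replicate 1 lay above 2 of the 3 AA2G arrays, and the difference was 0.37 without that array, 0.13 without untreated replicate 3 and 0.15 without AA2G replicate 1.

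**Figure D3:**
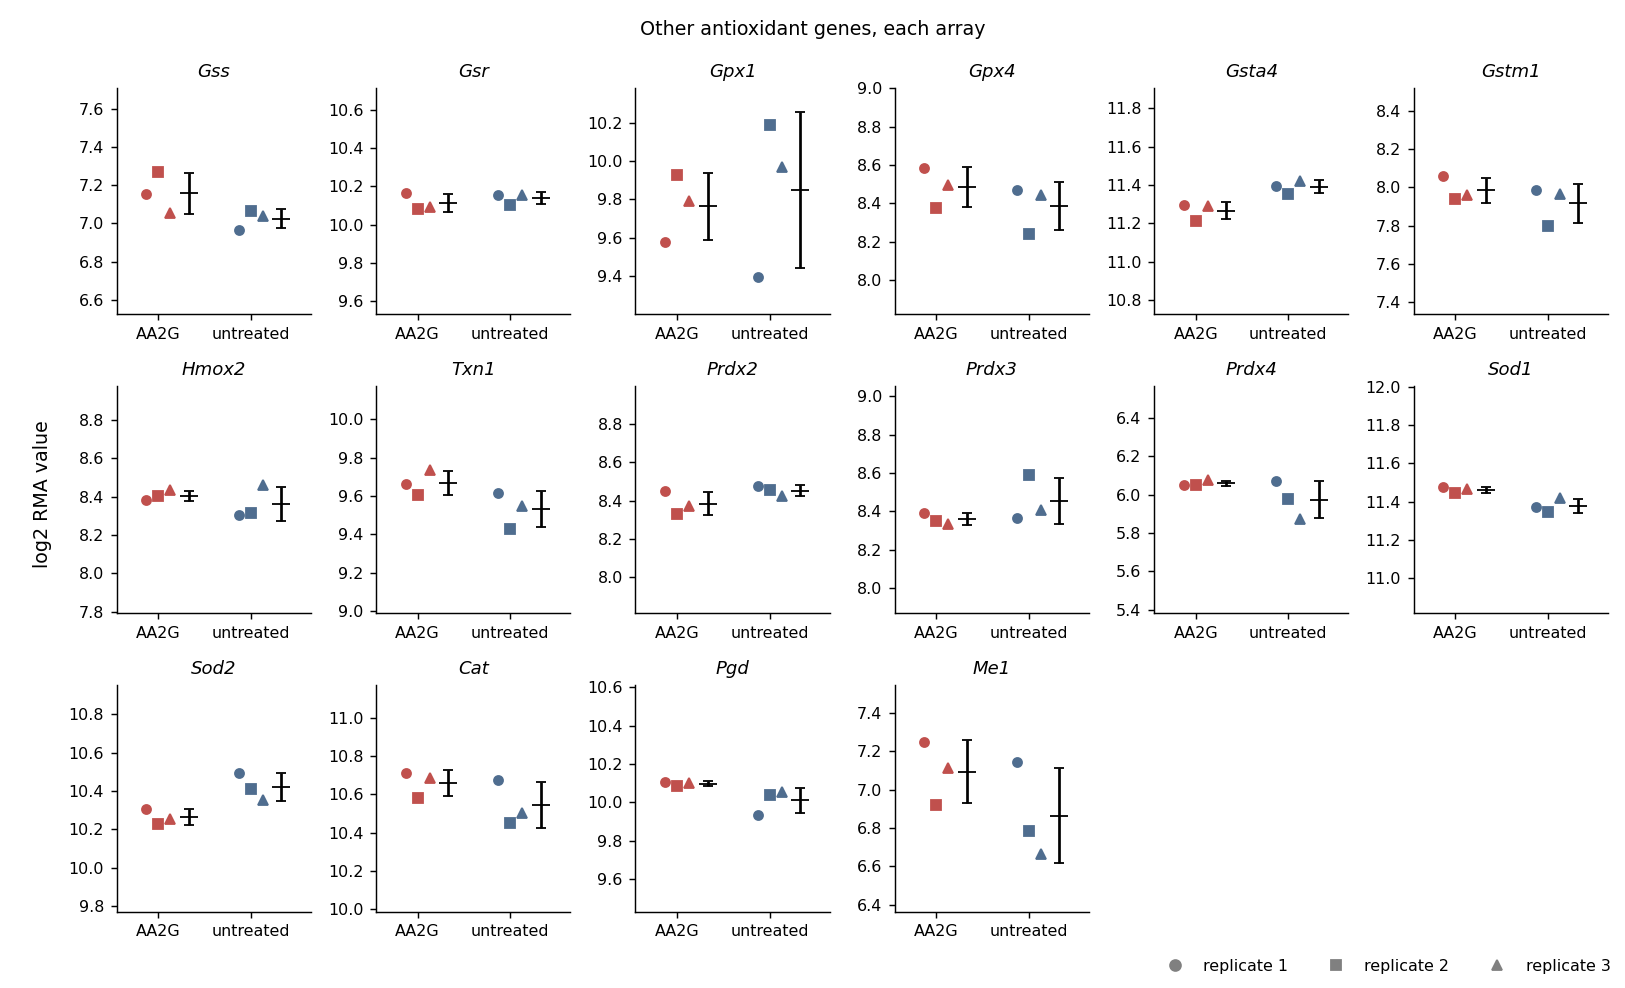
Log2 RMA value (vertical axis, the same span in every panel) of the other 16 antioxidant genes on each array, AA2G left and untreated right, with a marker for each replicate and the mean ± SD (n = 3) in black. The groups do not overlap for Gsta4, Sod1, Sod2 and Pgd, and the SD of Gpx1 in the untreated samples (0.41) is the widest in the plot.

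Genes of iron transport had positive differences in 4 of 4 cases, against 47.7% of all features, and in 2 of the 4 the AA2G arrays lay above the untreated ones, against 7.21% of all features. The 4 were chosen with earlier results of these data known, and the differences of Slc11a2 and Slc40a1 were smaller than their SE. Among 25 other iron and heme genes, 8 differences were positive and 17 negative. Tfrc, the transferrin receptor through which dividing cells take up iron, had values of 10.17, 9.88 and 9.96 in the AA2G samples, against 9.81, 9.78 and 9.72 in the untreated samples. All AA2G arrays lay above all untreated arrays, and the difference was 0.23 ± 0.09 (SE; limma adjusted p = 0.456), a percent difference of 17.4%, with a 95% interval of 0.02 to 0.44. Without AA2G replicate 1 the difference was 0.14. Steap3, the endosomal reductase that turns transferrin-borne ferric iron into ferrous iron, had values of 6.13, 6.46 and 6.25 in the AA2G samples, against 5.54, 6.02 and 5.93 in the untreated samples. The groups did not overlap here either, and the difference of 0.45 ± 0.14 was 36.7% on the linear scale, with a 95% interval of 0.13 to 0.78 (limma adjusted p = 0.302, the smallest of the set). It was 0.30 without untreated replicate 1 and 0.55 without untreated replicate 2.

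Slc11a2, the carrier DMT1 that moves ferrous iron out of the endosome, had values of 7.24, 7.42 and 7.35 in the AA2G samples, against 7.26, 7.33 and 7.20 in the untreated samples, a difference of 0.07 ± 0.08. Slc40a1, ferroportin, the exporter of iron from cells, had values of 5.05, 5.39 and 4.60 in the AA2G samples, against 4.82, 4.96 and 4.96 in the untreated samples. The AA2G arrays lay on both sides of the untreated ones, and the difference of 0.10 was smaller than their SD of 0.39. Iron regulatory proteins bind messenger RNAs of the receptor, of ferritin and of ferroportin when iron is scarce. Of their genes, Ireb2 had values of 9.45, 9.57 and 9.49 in the AA2G samples, against 9.43, 9.52 and 9.40 in the untreated samples (difference 0.05, limma adjusted p = 0.877). Aco1 had values of 8.24, 8.08 and 8.18 in the AA2G samples, against 8.34, 8.09 and 8.01 in the untreated samples (difference 0.02, limma adjusted p = 0.975). Fth1, the ferritin heavy chain and no member of the set, had a difference of 0.03 ± 0.07, with AA2G arrays at 11.67, 11.71 and 11.70 and untreated arrays at 11.60, 11.71 and 11.67, and the light chain gene Ftl1 has no feature of its own.

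The metallothioneins, small cysteine-rich proteins that bind zinc and copper and scavenge oxidants, varied more between replicates than between groups. Mt1 had values of 10.50, 10.90 and 10.77 in the AA2G samples, against 10.48, 11.02 and 10.78 in the untreated samples. Mt2 had values of 10.92, 11.61 and 11.49 in the AA2G samples, against 10.71, 11.76 and 11.57 in the untreated samples. In both genes and both groups replicate 1 was the lowest and replicate 2 the highest. Nqo1, Gclc, Txnrd1, Steap3 and Gpx1 had the same order in both groups. The differences were -0.03 ± 0.15 for Mt1 and -0.01 ± 0.28 for Mt2 (SE; limma adjusted p = 0.974 and 0.996). The interval for Mt2, from -0.65 to 0.64, was the widest of the set.

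**Figure D4:**
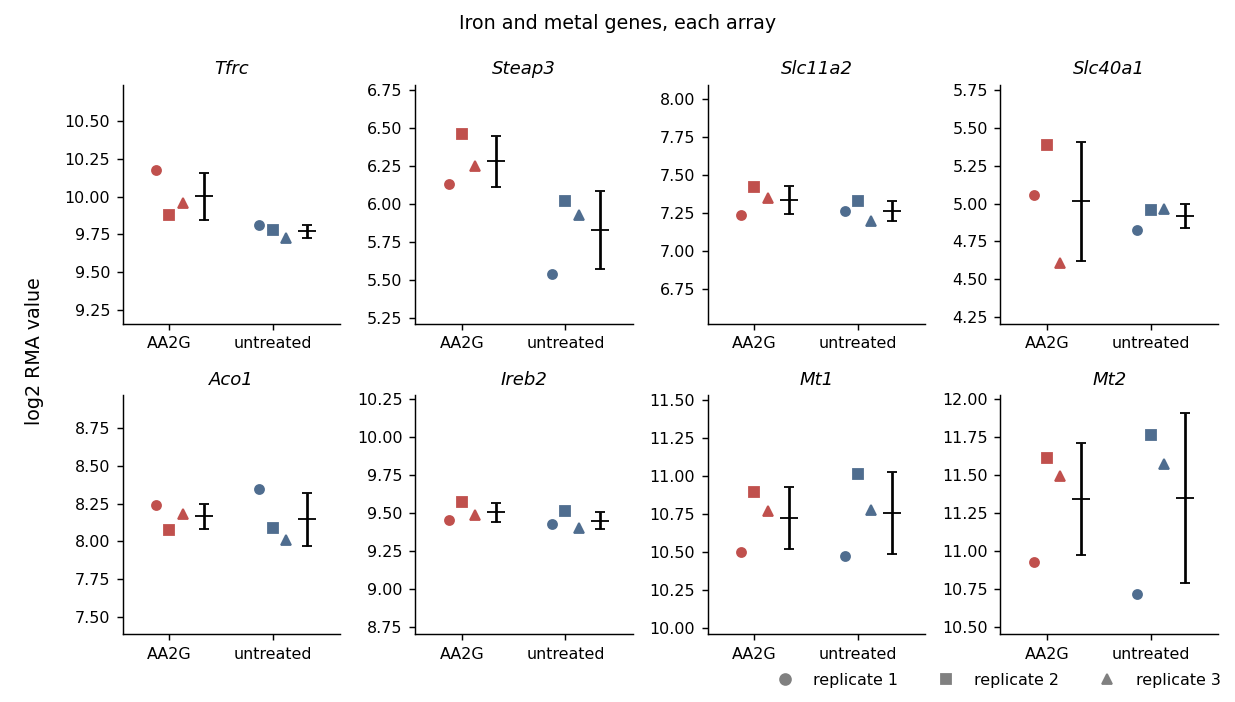
Log2 RMA value (vertical axis, the same span in every panel) of the 8 iron and metal genes on each array, AA2G left and untreated right, with a marker for each replicate and the mean ± SD (n = 3) in black. The AA2G arrays of Tfrc and Steap3 lie above the untreated arrays, and in Mt1 and Mt2 the circle of replicate 1 is the lowest point of each group.

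The promoters of both metallothionein genes are shown because the 2 genes share their order of arrays. That order is not particular to them in the set, and its cause was not tested. Metal response elements, bound by the zinc sensor MTF1, were searched as TGCACNC or TGCGCNC on either strand, and matches are in capitals. Only the 250 bases before an annotated start were searched. The Mt1 stretch ends at the last of these bases, so any element beyond that start would be missed. The numbers of matches in the 2 genes are therefore not those of their whole promoters.
Mt1: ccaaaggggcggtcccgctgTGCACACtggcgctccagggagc
Mt2: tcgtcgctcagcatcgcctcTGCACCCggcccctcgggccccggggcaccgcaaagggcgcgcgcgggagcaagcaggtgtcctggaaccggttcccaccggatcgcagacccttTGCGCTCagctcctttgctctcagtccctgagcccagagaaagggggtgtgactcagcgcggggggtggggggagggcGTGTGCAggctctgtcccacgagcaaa

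The Mt1 stretch is chr8:94179046-94179088 and the Mt2 stretch chr8:94172375-94172594, both on the plus strand of GRCm38.p6. The short letters are common: they stood in 9 of the 29 genes with a window (31.0%) and in 23.8% of all genes. Between the second and the third match of Mt2 lies its TGACNNNGC match.

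Other genes of the same pathways, listed by role with earlier results of these data known, gave 0 limma calls among 96 measured of 111. With an unadjusted p under 0.05, 7 were higher and 4 lower (11.5% of the 96, against 9.71% of all features). Their median difference was 0.01, and 52 of the 96 were positive. Among 11 other regulators of NRF2 no gene was under 0.05, and those with the smallest p were Bach2, a repressor of the BACH family, at -0.13, Btrc, a ubiquitin ligase adaptor, at -0.15, and Sqstm1, p62, which captures KEAP1, at -0.12. Of 31 other target and conjugation genes, 2 were higher and 1 was lower at an unadjusted p under 0.05. Cbr3, a carbonyl reductase, was the lower one, at 4.77, 5.23 and 5.06 in the AA2G samples against 5.25, 5.69 and 5.37 in the untreated samples (difference -0.42 ± 0.15, SE; limma adjusted p = 0.376). Akr1b8, an aldo-keto reductase, was at 0.28 and Idh1, a cytosolic source of NADPH, at 0.21.

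Of 18 other glutathione and thioredoxin genes, 4 were higher and 1 was lower at an unadjusted p under 0.05, with the smallest p for Gpx3, the secreted peroxidase, at 0.26 ± 0.08 (SE; limma adjusted p = 0.311). Chac1, which degrades glutathione, was at 7.57, 7.93 and 7.75 in the AA2G samples, against 7.49, 6.48 and 7.18 in the untreated samples (difference 0.70 ± 0.23), and Txnrd3, a thioredoxin reductase best known from the testis, was at 0.26. Of 25 other iron and heme genes, 0 were higher and 1 was lower at an unadjusted p under 0.05. This was Cybrd1, a ferric reductase, at -0.25, followed by the metal carrier Slc39a8 at -0.26 and the ferroxidase Heph at -0.12. Of 11 other metal genes, the zinc carrier Slc30a4 was lower, at 5.01, 5.05 and 5.12 in the AA2G samples against 5.33, 5.37 and 5.31 in the untreated samples (difference -0.27 ± 0.07, limma adjusted p = 0.178). The copper chaperone Cox17 was at 0.30 ± 0.09 (limma adjusted p = 0.311) and the zinc carrier Slc30a5 at 0.14.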

How the data were processed

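The deposited values are log2 expression values, 1 column per array for 6 arrays, made by the authors with RMA, per the submitters' processing notes, which name Affymetrix Expression Console. Its version, the annotation release and the genome build are unstated in the sources used here. Quantile normalization, part of RMA, makes arrays alike in distribution, so a change in total RNA per cell is not seen. Precision is limited by the number of arrays.

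Of 41345 features, 23521 have 1 symbol in the platform annotation, 1814 have several and 16010 have none listed. Only those with 1 symbol were tested. AA2G was compared with untreated cells with limma 3.58.1 in R 4.3.3 (lmFit, eBayes, two-sided, no covariate), with Benjamini-Hochberg adjustment over the 23521 features and a threshold of 0.05. The procedure was tested on simulated data. There it called 0.15% of log2 differences of 0.25, 26.1% of those of 0.5 and 89.5% of those of 1. A p-value sets a difference against the spread between these 3 samples a group, which limma moderates with the variances of all tested features. A gene with several features is given by the brightest one over the 6 arrays, and other features are given beside it. Of the set, all members are given with their levels. Full statistics go to members with an unadjusted p under 0.05, to the 2 smallest p in each class and to 12 genes fixed by name. Of the other pathway lists, the 3 smallest p in each are named, and Fth1 is named too. The members and lists were chosen with earlier results of these data known. Promoter sequences are RefSeq's (GRCm38.p6).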

Additional observations from a re-analysis of the deposited data

How the results depend on the processing

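With 3 arrays a group, the SE of a member's difference ran from 0.07 to 0.28, and no detection calls are at hand for dim genes such as Slc7a11. The count of members past the adjusted threshold was 0 in the reported fit and under all 15 alternatives. Of the 33 members, 27 had the same sign under each alternative in which they were tested (Slc7a11 was left out with brighter features only); the exceptions were Gpx1, Srxn1, Slc40a1, Aco1, Mt1 and Mt2. The count of all features called, 179 as reported, was 277 with a trended robust prior, 496 with array weights and 13 with ordinary variances, and from 64 to 131 with single arrays left out. Members at an unadjusted p under 0.05, 6 as reported, numbered 2 to 6 with single arrays left out, and 9 with array weights or the trended robust prior. The share of all features under this p was not computed for these fits, so these counts have nothing to be set against. The members' median difference, 0.02 as reported, was 0.0362 with quantile normalization repeated, -0.0285 with array weights and -0.0066 with brighter features only (31 members tested), and ran from -0.0100 to 0.0515 with single arrays left out. Leaving out single arrays turned Aco1 (range -0.0494 to 0.119), Mt1 (-0.171 to 0.0989) and Mt2 (-0.325 to 0.202). It also turned Gpx1 (-0.311 to 0.0831), Srxn1 (-0.0984 to 0.0515) and Slc40a1 (-0.09 to 0.30). The cause was not tested. Samples of the same replicate number deviated together for numbers 1 and 2 (r = 0.23 and 0.22 across features, which are not independent) but hardly for number 3 (r = 0.02). Over the members alone r was 0.87, 0.71 and 0.06. Because not every number passed an r of 0.1 across features, the numbers were not taken as pairs. The reported SE, intervals and p-values therefore take no account of the replicate number. With it as a block, the SE was 0.08 for Steap3, 0.08 for Nqo1 and 0.09 for Mt2, against 0.14, 0.14 and 0.28 as reported. For Tfrc it was 0.08, against 0.09. With the replicate number as a block, 155 features and 0 members were called, 8 members had an unadjusted p under 0.05, and the members' median was 0.02. At an unadjusted p under 0.05 in this fit, 3 members were higher and 5 lower, as were 1349 and 1582 of all 23521 features. Without the block, 1095 features were higher and 1189 lower. Across all features each of the 6 arrays correlated best with its own number. Over the members this did not hold for number 3, where AA2G replicate 3 went best with untreated replicate 2 (r = 0.20). Untreated replicate 3 went best with AA2G replicate 2 (r = 0.49).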
